A study of Homo sapiens with 6 samples.

Results

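FRMD6, AMOTL2, PTPN14, CYR61 and CTGF are 5 genes of the Hippo pathway and its output, and their Argonaute crosslink sites are described here in human kidney cells with and without TGF-beta1. They were taken by gene symbol from a table of Argonaute crosslink sites, where they hold 97 of 16230 sites and are 5 of 4361 named genes. CYR61 and CTGF are now named CCN1 and CCN2. The cells are HK2, a widely used line from the proximal tubule of human kidney, with the genotype given as WT. All cells were serum starved for 24 h and given 100 uM 4-thiouridine for the last 20 h before ultraviolet light of 365 nm. The treated group also received 24 h of TGF-beta1 at 20 ng/mL, which the control group did not. Each group has 2 libraries made with an antibody to Argonaute, and 2 IgG libraries of the series were not analysed here. The title of the series asks about FRMD6 as a target of miR-17 and miR-20a in kidney epithelium.

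The Hippo pathway is a kinase cascade that limits organ growth. Its kinases phosphorylate YAP and TAZ, which are then held out of the nucleus. When the kinases are less active, YAP and TAZ enter the nucleus, bind TEAD factors and raise transcription of genes such as CYR61 and CTGF. In kidney, TGF-beta1 is a main driver of fibrosis, and YAP and TAZ act together with its signalling in scarring tissue. MicroRNAs guide Argonaute to transcripts by pairing bases 2 to 8 of the microRNA, the seed, with a target that is usually in the 3' UTR. In PAR-CLIP a 4-thiouridine in the RNA is crosslinked to the bound protein, and the crosslinked T is read as a changed base. The deposited table gives each crosslinked T, the transcript part it lies in and the microRNA seed that the authors matched near it.

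Values below are crosslinked reads in RPM, the deposited unit that scales reads to the total of each library, divided by a TMM factor per library, which scales the libraries to each other on most features, and are called scaled RPM. The control libraries held 1714445 and 1926255 reads and the treated libraries 5293207 and 3415699, with 36958 to 74969 crosslinked reads at the listed sites. Without the TMM factors the median tested gene was lower by 0.45 on the log2 scale in treated cells, so every change here is relative to that median. The site list follows the deeper treated libraries: 1874 sites had no crosslinked read in either control library and 193 had none in either treated library. In bulk samples fewer cells and less RNA per cell cannot be told apart. RNA-seq values were not used here, so a change in the amount of a transcript and a change in Argonaute bound per transcript cannot be told apart either. Nothing in the labels says whether replicate libraries stem from separate cultures. The p-values therefore reflect only how far these libraries differ, and part of that can be technical.

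Of 20 proximal tubule markers, 1 gene, the cadherin CDH6, had Argonaute sites, and its log2 difference of 0.06 did not pass (limma adjusted p = 0.969). None of 21 markers of immune, endothelial and fibroblast cells had a site. Argonaute-bound RNA is not a measure of expression, so these counts say little about the cell type.

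The sites that carried most of the crosslinks of FRMD6 and AMOTL2 are shown first, because the results below turn on them. Each is 30 bases of the transcript strand on the hg38 genome from the deposited table, with the crosslinked T as base 15. Capitals mark the seed match that the authors listed.

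FRMD6 miR-17 site: agccttggaacaattGCACTTTaagtatta
FRMD6 miR-29a site: tgtcttagaaaacgttGGTGCTtggtgatg
FRMD6 miR-21 site: ttcagaaacagttgtTAAGCTtcgtggcca
FRMD6 site without a listed seed: ccttcagaaggaaatgcgctttactgattg
AMOTL2 miR-27 site: taaagtattttttgtgCTGTGAacattttc
AMOTL2 miR-30 site: ttggttcatgtgcatTGTTTACaaagcaaa

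The FRMD6 miR-17 site lies in the 3' UTR at chr14:51728175-51728204 on the plus strand. The site without a listed seed (chr14:51728266-51728295) lies 91 nt downstream of it, measured between crosslinks, and the miR-29a site (chr14:51728815-51728844) lies 640 nt downstream, both also in the 3' UTR. The miR-21 site (chr14:51725819-51725848) lies in coding sequence. Both AMOTL2 sites lie in its 3' UTR on the minus strand, at chr3:134356028-134356057 and chr3:134356145-134356174, with crosslinks 117 nt apart.

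The microRNAs that the authors listed at these sites are given from RefSeq (GRCh38.p14) with the seed in capitals. The first 4 share the seed AAAGUGC and cannot be told apart by it.

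hsa-miR-17-5p: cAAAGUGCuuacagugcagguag
hsa-miR-20a-5p: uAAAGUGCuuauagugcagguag
hsa-miR-93-5p: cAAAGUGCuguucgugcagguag
hsa-miR-106b-5p: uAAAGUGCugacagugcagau
hsa-miR-29a-3p: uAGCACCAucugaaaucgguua
hsa-miR-21-5p: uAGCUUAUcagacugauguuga
hsa-miR-27a-3p: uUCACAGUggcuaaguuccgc
hsa-miR-30a-5p: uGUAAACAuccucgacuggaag

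At the miR-17 site the match to bases 2 to 8 starts on the base after the crosslinked T and is followed by an A. The same letters overlap a shorter match that the authors listed for miR-148a and its relatives. GCACTTT was found on the transcript strand in 2.43% of the windows of all 6332 crosslink sites in 3' UTRs. At the miR-29a site the authors listed a 6-base match, with a seed that starts 1 base earlier than the RefSeq seed. Counted with the RefSeq seed, the full match TGGTGCT starts on the base after the crosslinked T. It was found in 2.64% of 3' UTR windows. The miR-21 site and the miR-27 site hold 6-base matches, the latter followed by an A, and the miR-30 site a 7-base match followed by an A. The authors' score, microRNA reads per seed, was 376262 for miR-21, 50330 for the miR-30 seed, 8776 for miR-27, 3425 for the miR-17 seed and 1784 for miR-29a.

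FRMD6 encodes a FERM domain protein, related to merlin, that acts upstream of the Hippo kinases. Its Argonaute crosslinks rose 5.49-fold with TGF-beta1, summed over its 22 sites. It had 12.2 and 13.9 scaled RPM in control and 71.2 and 71.8 in treated libraries, from 22, 37, 251 and 252 crosslinked reads in that order. Both treated libraries were far above both controls, and the libraries of each group lay close together. Both treated libraries lay above both controls in 20.5% of tested genes. The mean was 13.02 ± 1.21 (SD, n = 2) in control and 71.5 ± 0.428 (SD, n = 2) in treated cells. The log2 difference, here and below on the log2(scaled RPM + 1) scale, was 2.37 with a standard error of 0.23 and a 95% interval of 1.86 to 2.89 (limma adjusted p = 0.000455 over 1266 tested genes). Over all tested genes 3.08% passed in either direction and 1.58% were higher. With 1 control library left out, none of the 1266 genes passed. FRMD6 then had log2 differences of 2.29 without control replicate 1 (adjusted p = 0.182) and 2.46 without control replicate 2 (adjusted p = 0.268).

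**Figure D1:**
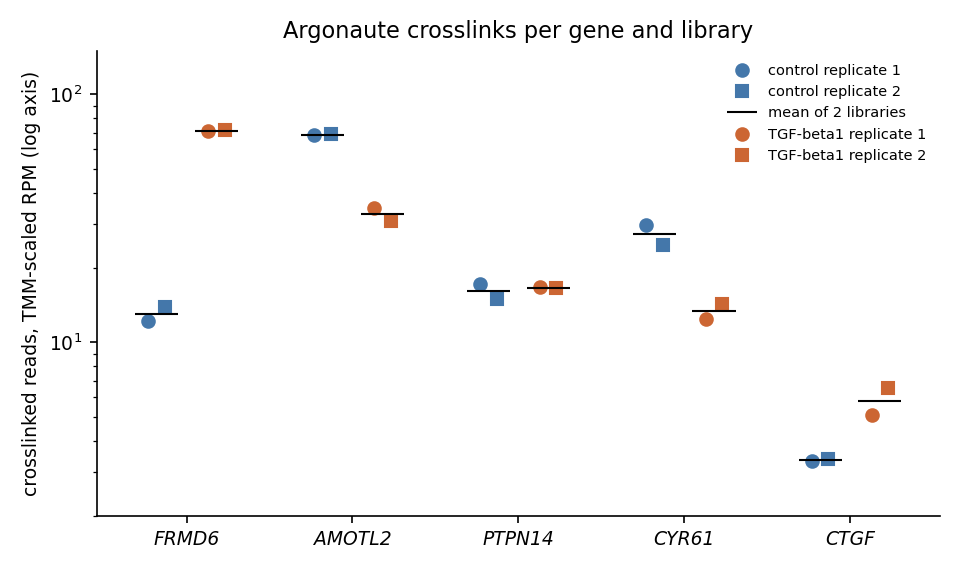
Crosslinked reads in TMM-scaled RPM (log axis) for the 5 genes, 1 point per library, with a line at the mean of the 2 libraries of each group. FRMD6 lies higher in both treated libraries, AMOTL2 and CYR61 lie lower in both, and PTPN14 overlaps between groups; levels are sums over sites and are not to be compared between genes.

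Of the 22 FRMD6 sites, 4 had enough reads for a test, 3 in the 3' UTR and 1 in coding sequence, and all 4 rose, where 3.68% of 1059 tested sites were higher and 3.4% lower. They passed the filter on low counts through the treated libraries, so their shared direction is no separate support. The miR-17 site had 2.21 and 1.72 scaled RPM in control and 23.7 and 16.9 in treated libraries, from 4, 5, 77 and 59 reads. The treated libraries were 10.3-fold higher in the mean, with a log2 difference of 2.83 ± 0.41 (SE; limma adjusted p = 6.23e-05). The miR-29a site had 2.76 and 3.44 in control and 13.2 and 14.9 in treated libraries, a rise of 4.53-fold (log2 difference 1.88 ± 0.41 SE; limma adjusted p = 0.00427). At both of these sites each treated library stood well above each control. Both treated libraries lay above both controls at 23.9% of tested sites.

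The coding site with the miR-21 match had 0.553 and 4.13 scaled RPM in control and 12.9 and 13.7 in treated libraries. Its controls differed widely, from 1 and 12 reads, but both lay under the treated libraries. It rose 5.69-fold in the mean (log2 difference 2.34 ± 0.51 SE; limma adjusted p = 0.00446). Without control replicate 1 its log2 difference was 1.48 and without control replicate 2 it was 3.09. The 3' UTR site without a listed seed had 2.21 and 0.689 in control and 8.62 and 9.14 in treated libraries, a rise of 6.13-fold (log2 difference 2.08 ± 0.53 SE; limma adjusted p = 0.0136). Its window holds GCGCTTT on the base after the crosslinked T. That differs from the miR-17 seed match by A3G, counted from the 5′ end of the match, and would leave 1 G:U pair. These letters were looked for after the window had been seen, and 0.111% of 3' UTR windows hold them.

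All 4 FRMD6 sites missed the threshold when either treated library was left out, with adjusted p from 0.0638 to 0.46, and 3 and 5 of the 1059 sites passed in those fits. Without TMM scaling the miR-17 site passed and the other 3 did not, with adjusted p from 0.103 to 0.261. The coding site also missed it without a variance trend (adjusted p = 0.0607).

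**Figure D2:**
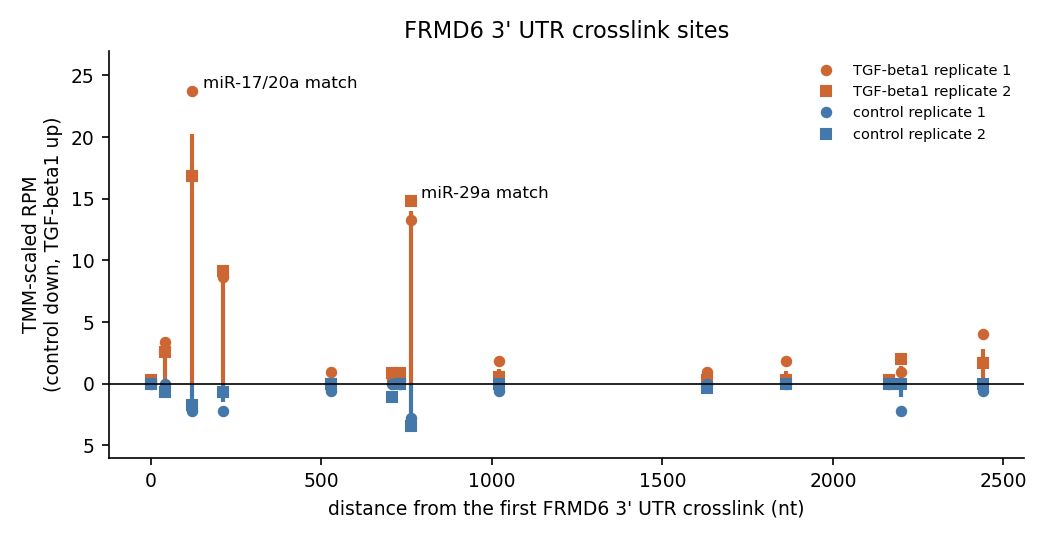
Scaled RPM at the 14 crosslink sites of the FRMD6 3' UTR by distance from the first (nt), with treated libraries drawn upward, control libraries downward and bars at the group means. The sites with the miR-17 and miR-29a matches and the tested site without a listed seed stand out from the other 11.

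The other 18 FRMD6 sites had too few reads for a test, from 2 to 22 over the 4 libraries. The treated mean was higher at all 22 sites, against 57.2% of all sites in the table. At 17 of the 22 both treated libraries lay above both controls, which held for 25.5% of all sites, and 9 of the 22 had no control read. These sites share the transcript and are not separate measurements of the condition. The untested site with the most reads, with a 7-base match for miR-183 directly after the crosslinked T, had 0 and 2 reads in control and 11 and 9 in treated libraries. A site near the end of the 3' UTR, with a 6-base match for miR-200b that ends on the crosslinked T, had 1 and 0 against 13 and 6 reads. Their windows are given next, chosen after the reads were seen.

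FRMD6 miR-183 site: ctttacatattacttGTGCCATatcttctt
FRMD6 miR-200b site: atcgcttgtCAGTATacccgttttggtata

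The sites of FRMD6 did not rise equally in the point estimates, but no inequality passed a test. The miR-17 site rose by 0.73 more on the log2 scale than the other tested FRMD6 sites (limma diffSplice adjusted p = 0.857), and the miR-29a site by -0.54 (adjusted p = 0.864). Of 512 sites tested in this way over 184 genes, 0% passed, with 27 at an unadjusted p under 0.05. As a share of the crosslinked reads of FRMD6, the miR-17 site held 18.2% (Wilson 95% interval 7.31 to 38.5) and 13.5% (5.91 to 27.98) in the control libraries. It held 30.7% (25.3 to 36.6) and 23.4% (18.6 to 29.0) in the treated libraries. The treated shares lay above the control shares, but the intervals overlapped and the exact permutation test gave p = 0.333, the smallest that 2 against 2 libraries can give. No molecular identifiers are named, so these intervals cover counting error only.

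Counted as all reads that cover the same positions, the share of the miR-17 site was 9.26% and 15.1% in control and 11.5% and 8.94% in treated libraries. That share did not separate the groups. Of the reads that cover any of the 22 FRMD6 sites, 40.7% and 50.7% were crosslinked in control and 21.8% and 22.1% in treated libraries. Over the 6145 sites crosslinked in every library these shares were 27.6% and 31.1% in control and 22.98% and 25.5% in treated libraries. Counted by covering reads, FRMD6 also rose, with log2 differences of 3.19 over all its sites and 2.63 over those with a crosslink in all 4 libraries, and passed in both fits (limma). Coverage is listed as 0 wherever a library had no crosslinked read, and 9 of the 22 FRMD6 sites had no control read. Coverage summed over all FRMD6 sites, 54, 73, 1154 and 1141 reads, thus counts fewer sites in control than in treated libraries. The crosslinked percentages of FRMD6 are therefore not like for like between the groups, nor with the 6145 sites. The share of the miR-17 site in covering reads and the log2 difference of 3.19 carry the same limit.

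AMOTL2 encodes an angiomotin-like scaffold protein that binds YAP and is itself transcribed by YAP and TEAD. Its Argonaute crosslinks fell 2.097-fold with TGF-beta1, summed over 10 sites. The control libraries had 68.6 and 69.0 scaled RPM and the treated libraries 34.9 and 30.8, from 124, 184, 123 and 108 reads. The treated libraries lay close together and under both controls, where 23.1% of tested genes had both treated libraries below both controls. The mean was 68.8 ± 0.295 (SD, n = 2) in control and 32.8 ± 2.91 (SD, n = 2) in treated cells, and 1.5% of tested genes were lower. The log2 difference was -1.05 ± 0.21 (SE), with a 95% interval of -1.52 to -0.57 (limma adjusted p = 0.0273).

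The call for AMOTL2 rests closely on the settings: adjusted p was 0.0568 without TMM scaling and 0.2 without a variance trend. It was 0.265 and 0.293 without control replicate 1 or 2, and 0.107 and 0.215 without TGF-beta1 replicate 1 or 2, with log2 differences from -1.14 to -0.96.

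AMOTL2 crosslinks were concentrated on the pair of sites shown above, which held 86.3% of its reads. The miR-27 site had 54.7 and 48.2 scaled RPM in control and 24.0 and 18.6 in treated libraries, from 99, 140, 78 and 65 reads. It fell 2.42-fold, with both treated libraries under both controls, as at 24.5% of tested sites (log2 difference -1.24 ± 0.24 SE; limma adjusted p = 0.00212). The miR-30 site had 7.74 and 6.20 in control and 8.01 and 7.14 in treated libraries, where the groups overlapped. Its log2 difference was 0.11 with a 95% interval of -0.71 to 0.93 (limma adjusted p = 0.905). The call at the miR-27 site was lost without TMM scaling (adjusted p = 0.0645), without TGF-beta1 replicate 1 (0.104) or 2 (0.149), and with coverage in place of crosslinked reads (0.0568). It was also lost with TMM factors from all features (0.122), without a variance trend (0.127) and without the filter on low counts (0.268), and 8 of 15 settings kept it.

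Set against each other, the miR-27 site fell by 1.35 ± 0.54 (SE) more on the log2 scale than the miR-30 site, which did not pass after adjustment (limma diffSplice adjusted p = 0.785). The miR-27 site held 79.8% (Wilson 95% interval 71.9 to 86.0) and 76.1% (69.4 to 81.7) of AMOTL2 crosslinked reads in control libraries. In treated libraries it held 63.4% (54.6 to 71.4) and 60.2% (50.8 to 68.9). The miR-30 site held 11.3% and 9.78% in control and 21.1% and 23.1% in treated libraries. Both shares separated the groups, and for each the exact permutation test gave p = 0.333, the smallest it can give here. In covering reads the share of the miR-27 site was 72.8% and 69.4% in control and 62.3% and 69.4% in treated libraries, a difference of -5.20 percentage points against -16.2 in crosslinked reads.

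The other 8 AMOTL2 sites held 2 to 32 reads each. The largest of them, in the 3' UTR with no listed seed, had 1 and 16 reads in control and 10 and 5 in treated libraries, so that the controls differed from each other more than the groups. At 1 of the 10 AMOTL2 sites both treated libraries lay above both controls and at 4 both lay below, against 25.5% and 13.5% of all sites.

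**Figure D3:**
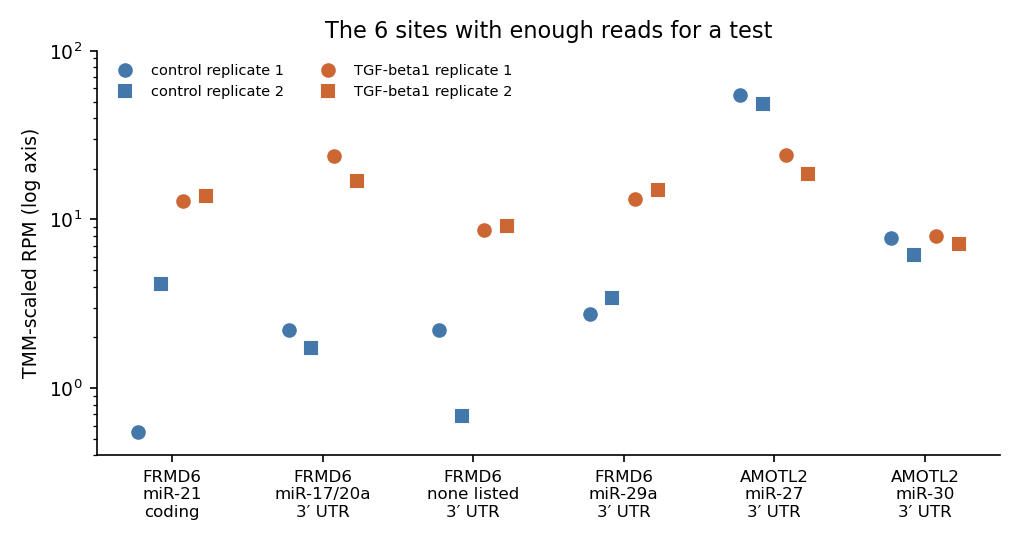
Scaled RPM (log axis) in each library at the 6 sites with enough reads for a test, labelled by gene, listed microRNA seed and transcript part. All 4 FRMD6 sites lie higher in both treated libraries, the AMOTL2 miR-27 site lies lower in both, and the AMOTL2 miR-30 site overlaps.

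PTPN14 encodes a tyrosine phosphatase that binds YAP and holds it in the cytoplasm. Its Argonaute crosslinks had 17.1 and 15.003 scaled RPM in control and 16.7 and 16.5 in treated libraries, from 31, 40, 59 and 58 reads over 33 sites. The treated libraries lay between the controls. The log2 difference was 0.05 with a 95% interval of -0.55 to 0.65 (limma adjusted p = 0.962), so a change of up to that size in either direction was not excluded by the interval.

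The reads of PTPN14 were thinly spread, with no site over 25 reads and none with enough for a test. At 10 of the 33 sites both treated libraries lay above both controls and at 4 both lay below, against 25.5% and 13.5% of all sites. Introns held 21 of its sites. They took 45.2% and 37.5% of its crosslinked reads in control and 61.0% and 60.3% in treated libraries, from 14, 15, 36 and 35 reads. The 3' UTR share was 54.8% and 47.5% in control and 33.9% and 32.8% in treated libraries, from 17, 19, 20 and 19 reads. The groups did not overlap in either share (exact permutation p = 0.333 for each, the smallest possible). Over all sites, introns took 9.69% and 6.76% of crosslinked reads in control and 10.96% and 8.64% in treated libraries, where the groups overlapped. Of the reads that cover PTPN14 sites, 51.7% and 44.4% were crosslinked in control and 23.6% and 36.5% in treated libraries. Coverage is listed as 0 where a library had no crosslinked read, so these percentages count unlike sites in control and treated libraries.

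The leading PTPN14 site lies in the 3' UTR at chr1:214348878-214348907 on the minus strand and had 4 and 7 reads in control and 5 and 9 in treated libraries, which overlap. Its window, shown because it holds more than 1 seed match, was chosen after the values were seen. The authors' main match is that for miR-200b and miR-429, which ends on the base before the crosslinked T. They also listed a nearby match for miR-148a and its relatives. It lies on the other side as TGCACTG, the match to bases 2 to 8 of miR-148a-3p. TGCACTG was found on the transcript strand in 1.14% of 3' UTR windows.

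PTPN14 leading site: actttgaCAGTATTttttgcactgtttcct
hsa-miR-200b-3p: uAAUACUGccugguaaugauga
hsa-miR-148a-3p: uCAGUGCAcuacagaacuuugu

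**Figure D4:**
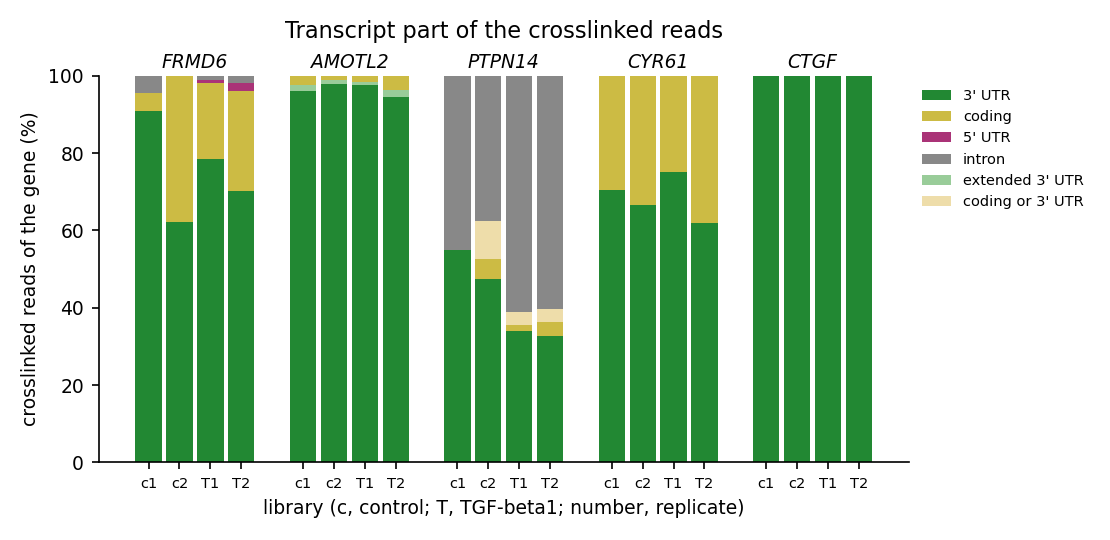
Share (%) of the crosslinked reads of each gene by transcript part in each library (c, control; T, TGF-beta1; number, replicate). The 3' UTR holds most reads of AMOTL2 and all reads of CTGF, introns take a larger share of PTPN14 in both treated libraries, and coding sequence varies between the FRMD6 controls.

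CYR61 and CTGF encode secreted matricellular proteins of the CCN family and are among the most used readouts of YAP and TAZ activity. CYR61 had 29.9 and 24.8 scaled RPM in control and 12.5 and 14.2 in treated libraries, from 54, 66, 44 and 50 reads over 26 sites. Both treated libraries were under both controls, as in 23.1% of tested genes. The log2 difference was -0.98 ± 0.27 (SE), with a 95% interval of -1.56 to -0.39, and did not pass (limma adjusted p = 0.0911). It passed in none of the 16 alternative settings run.

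No CYR61 site had enough reads for a test, the largest holding 26. Its 13 coding sites and 13 sites in the 3' UTR kept much the same shares: the 3' UTR held 70.4% and 66.7% of reads in control and 75.0% and 62.0% in treated libraries, which overlap. At 9 of the 26 sites both treated libraries lay below both controls and at 1 both lay above, against 13.5% and 25.5% of all sites. A 3' UTR site with a 6-base match for miR-21 directly after the crosslinked T had 6 and 6 reads in control and 2 and 2 in treated libraries. Another, with a 7-base match for miR-221 and miR-222, had 6 and 8 against 3 and 2 reads. The leading site, next to the latter, had 6 and 3 reads in control and 10 and 7 in treated libraries, which overlap once scaled, at 3.32, 1.03, 3.08 and 2.00 scaled RPM. It held 11.1% and 4.55% of CYR61 reads in control and 22.7% and 14% in treated libraries (exact permutation p = 0.333, the smallest possible).

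CYR61 miR-21 site: gatacagcagtgaatTAAGCTattaaaata
CYR61 miR-221 and miR-222 site: actgaatgttttatttatcaaaATGTAGCt

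The first of these lies at chr1:85583803-85583832 and the second at chr1:85583559-85583588, both on the plus strand, and they were chosen after their reads were seen. The first holds the same TAAGCT after its crosslinked T as the coding site of FRMD6, and its reads were lower in treated cells where those of the FRMD6 site were higher. At the CYR61 site the match is followed by an A and at the FRMD6 site by a T. With 16 reads in all at the CYR61 site, the difference between the 2 sites was not tested.

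CTGF had the fewest reads of the 5 genes, 6, 9, 18 and 23, all in its 3' UTR at 6 sites. These gave 3.32 and 3.38 scaled RPM in control and 5.10 and 6.55 in treated libraries. Both treated libraries were above both controls, as in 20.5% of tested genes, and the difference did not pass (log2 difference 0.64, 95% interval -0.26 to 1.55; limma adjusted p = 0.542). CYR61 and CTGF thus had point estimates of opposite sign, and neither passed. No CTGF site had a listed seed match directly after its crosslink. Its leading site moved between 11.1% and 50.0% of CTGF reads in the controls alone.

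Across the 5 genes, 6 of 97 sites could be tested: 4 rose, all in FRMD6, 1 fell, in AMOTL2, and 1 did not pass. The 4 FRMD6 sites passed the filter on low counts through the treated libraries, so their shared direction is no separate support. Over all tested sites 7.08% passed in either direction. The other 91 sites did not pass the filter, which asks for enough reads relative to library depth in as many libraries as a group holds. Only 9.28% of the 97 sites had a seed match that the authors place adjacent to the crosslink, against 22.95% of all sites. Those 9 sites nevertheless held 49.3% of the crosslinked reads of the 5 genes, against 44.9% over all sites. The genes differed in this: the share of reads at adjacent matches was 86.3% in AMOTL2, 48.0% in FRMD6, 11.7% in CYR61, 4.79% in PTPN14 and 0 in CTGF. These shares are descriptions, and the difference between the genes was not tested.

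The rest of the pathway was followed in a list of 33 genes of the Hippo kinases, their adaptors, upstream regulators and the YAP, TAZ and TEAD factors. Of these, 20 had crosslink sites and 12 had enough reads for a test. Besides FRMD6, which rose, and AMOTL2, which fell, 10 did not pass. Over all tested genes 1.58% were higher and 1.5% lower. The median log2 difference of the 12 was 0.09, against 0.02 over all tested genes. Apart from the 3 members FRMD6, AMOTL2 and PTPN14, the 9 tested genes had log2 differences from -0.41 to 0.40.

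The 3 with most reads among these 9 were LATS2, WWTR1 and FAT1. LATS2, a kinase that phosphorylates YAP and TAZ, had 30.4 and 25.1 scaled RPM in control and 26.9 and 34.5 in treated libraries, and its groups overlapped. WWTR1, the gene of TAZ, had 28.2 and 21.004 in control and 32.6 and 29.6 in treated libraries (log2 difference 0.34, 95% interval -0.22 to 0.90; limma adjusted p = 0.588). Its treated libraries lay just above the controls. FAT1, an atypical cadherin upstream of the pathway, had 34.3 and 20.3 against 28.3 and 26.2, with the treated libraries between the controls.

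A second list held 22 genes known as targets of YAP and TAZ, among them AMOTL2, PTPN14, CYR61 and CTGF. Of these, 14 had sites and 11 were tested: none rose, AMOTL2 and NUAK2 fell and 9 did not pass, where 1.58% of all tested genes were higher and 1.5% lower. The log2 difference was negative for 7 of the 11, and 5 had an unadjusted limma p under 0.05, as had 175 of all 1266 tested genes (13.8%). Both counts include F3 and AXL, which passed the filter on low counts only through the control libraries, so the filter itself set part of this lean. The median was -0.51, against 0.02 over all tested genes, and also -0.51 over the 7 tested targets that are not among the 5 genes. Both medians are the value of the same gene, TGFB2, so the second is no separate support. TGFB2 had 20.5 and 15.8 scaled RPM in control and 8.79 and 17.1 in treated libraries, which overlap. Leaving out 1 library moved the median of the 11 from -0.95 (without TGF-beta1 replicate 2) to -0.07 (without TGF-beta1 replicate 1), and 0 or 1 of the list then passed.

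NUAK2, a kinase related to AMPK, had 60.9 and 85.1 scaled RPM in control and 25.5 and 33.6 in treated libraries, a fall of 2.47-fold with no overlap (log2 difference -1.27 ± 0.25 SE; limma adjusted p = 0.0224). IGFBP3, which binds insulin-like growth factors, had 26.6 and 25.5 against 19.3 and 24.8 and did not pass (log2 difference -0.24, 95% interval -0.80 to 0.32). F3, AXL and NT5E are named after their values were seen. F3, tissue factor, which starts coagulation, had 5.53 and 10.9 against 0.850 and 2.28 (log2 difference -1.84; limma adjusted p = 0.0911). AXL, a receptor tyrosine kinase, had a log2 difference of -1.52 (limma adjusted p = 0.190) from 7, 8, 3 and 1 reads. Neither of these passed. Both treated libraries were below both controls in F3 and AXL, as in NUAK2 and in 23.1% of tested genes. NT5E, an enzyme that makes adenosine at the cell surface, lay the other way, with 0 and 4 reads in control and 14 and 15 in treated libraries. It was not tested, because the filter weighs reads against library depth. NT5E fell short of that filter in TGF-beta1 replicate 1, the deepest library, and so did not meet it in both treated libraries. It held 33 reads in all, against 19 for AXL.

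**Figure D5:**
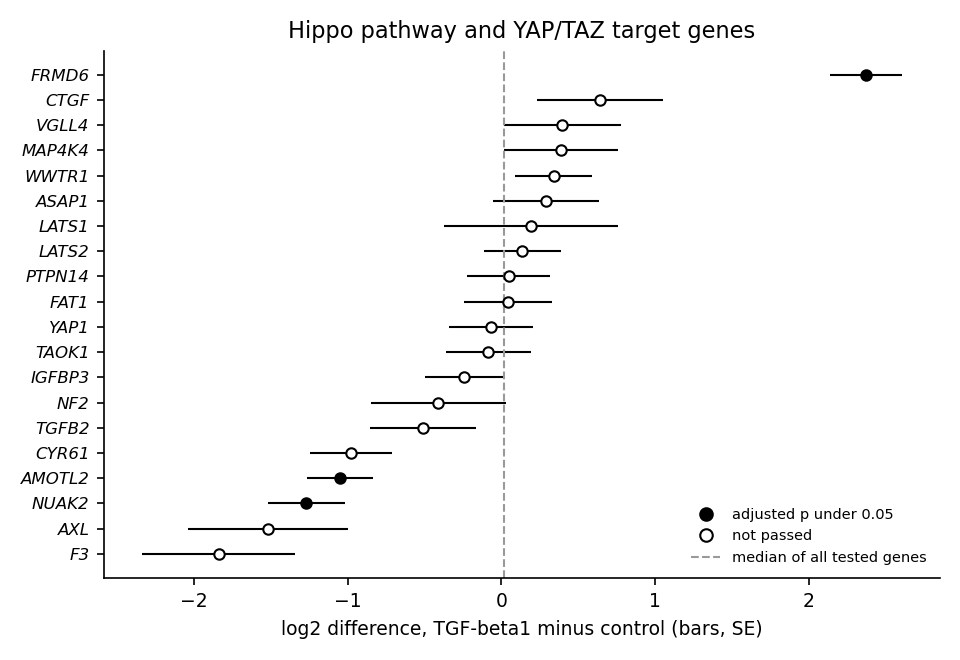
Log2 difference (treated minus control, log2(scaled RPM + 1) scale, bars SE) of the 20 tested genes of the Hippo and YAP/TAZ target lists, with filled points for adjusted p under 0.05 and a dashed line at the median of all tested genes. FRMD6 stands alone on the high side at 2.37, and the targets NUAK2, AMOTL2, CYR61, F3 and AXL lie lowest.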

How the data were processed

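Per the file headers, the authors deposited, for each site and library, RPM of reads with a crosslink and RPM of covering reads, and a score of microRNA reads per seed, with GENCODE release 27 features. Of tools, bcl2fastq 2.20.0.422, bedtools and STAR 2.7.1a stand in the submitters' processing notes, beside the build hg38. The crosslink caller is not given in the sources used here. All RPM values were whole reads (100% within 0.1 reads), so reads were recovered; the edgeR count test on them, an alternative, called 48 genes and 82 sites. Another 4 per-sample columns, of RNA-seq, were not used, and 551 sites name no gene and entered no gene sum.

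Genes are sums over their sites. The test was limma 3.58.1 (R 4.3.3) on log2(scaled RPM + 1), two-sided, with a variance trend, after edgeR 4.0.16 filterByExpr (minimum count 10) and TMM over the kept features, with Benjamini-Hochberg adjustment over all 1266 genes or 1059 sites and a threshold of 0.05. The trend was kept with counts of calls in view. TMM factors differ between genes (0.666 to 1.38) and sites (0.613 to 1.51), so site values do not sum to gene values. Site usage came from diffSplice. Scripts were tested on simulated data. Named from the lists were genes that passed and, where fewer than 3 did, the 3 with most reads that are not among the 5 genes. The 5 genes, lists and tests were chosen with earlier results of these data known. Alternatives were other scalings, pseudocounts, filters, tools (DESeq2 1.42.0), covering reads, 3' UTR sites alone, a replicate block and leaving out each library.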

Additional observations from a re-analysis of the deposited data

How the results depend on the processing

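The number of genes past the threshold was 39 of 1266. It was 65 with TMM factors from all features (42 higher, 23 lower), 29 without TMM (6 higher, 23 lower), 0 without the low-count filter (limma; 478 at an unadjusted p under 0.05), 3 without the variance trend, 149 with covering reads, 103 with covering reads only where all libraries had a crosslink, 70 with 3' UTR sites only, and 0 to 17 with 1 library left out. edgeR called 48 genes and DESeq2 38. For sites it was 75 of 1059, and 28 without TMM (4 higher, 24 lower), 42 with TMM factors from all features (34 higher, 8 lower), 0 without the filter (limma; 2334 unadjusted), 25 without the trend (20 higher, 5 lower), 47 with DESeq2, 117 with the replicate block, and 3 to 116 with 1 library left out; edgeR called 82. Without TMM the median tested site moved to -0.51. Site usage gave 0 calls, 1 without TMM, 1 with TMM factors from all features, and 0 to 1 with 1 library left out. The 2 calls of the Hippo list became 1 without TMM, 0 without the filter, 1 without the trend and 0 to 1 with 1 library left out. The 2 calls of the YAP and TAZ target list became 0 without the filter, 0 without the trend and 0 to 1 with 1 library left out. The factors from all features and the restriction of covering reads to sites with a crosslink in all libraries were chosen after seeing the data.

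FRMD6 kept its log2 difference of 2.37 but lost its call without the filter, at 2.37 (limma adjusted p = 0.291), where no gene of 4361 passed. With 1 library left out it ranged from 2.29 to 2.46. AMOTL2 lost its call without TMM (-1.58), without the filter (-1.05; limma adjusted p = 0.351) and without the trend (-1.05), and ranged from -1.14 to -0.96 with 1 library left out. PTPN14, CYR61 and CTGF passed in none of 16 settings, with log2 differences from -0.46 to 0.64, from -1.49 to -0.78 and from 0.21 to 0.92. Counted by covering reads, the change in the share of the leading site, in percentage points, was -1.93 against 11.2 for FRMD6, -5.20 against -16.2 for AMOTL2 and 2.36 against 10.5 for CYR61. Coverage is listed as 0 where a library had no crosslinked read, so the shares in covering reads rest on unlike sites between libraries. With 1 library left out the changes in crosslinked reads ranged from 7.57 to 14.8 for FRMD6, -18.0 to -14.3 for AMOTL2, -6.73 to 0.32 for PTPN14, 6.17 to 14.9 for CYR61 and -19.9 to 19.0 for CTGF. Where calls moved, the cause was not tested. The fits without the filter hold more features and those with 1 library left out hold fewer libraries. Whether either moved the calls was not tested.

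Control and treated libraries share replicate numbers. Deviations of same-numbered libraries correlated at 0.131 over genes and 0.117 over sites, which over 2 pairs is too little to treat libraries as paired. With the replicate block 35 genes, 117 sites and 0 usage differences passed, and no call of the 5 genes or their 6 tested sites changed. Where 1 library is left out, the lone library of that group is assumed to vary like the other group. Depth limits the rest: 74 of the 97 sites held fewer than 10 reads over all libraries.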
